A study of Rattus norvegicus with 18 samples.

Results

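This section describes how gene expression in the blood of Brown Norway (BN) rats differed between animals given procainamide and animals given sterile water. The comparison was defined by the sample titles and rests on 8 of the 18 arrays of the series. The 4 treated arrays carried blood RNA of male BN rats given procainamide at 40 mg/kg, and the 4 control arrays that of male BN rats given sterile water. Blood was drawn from the venous sinus of the eye when treatment ended, and how long treatment lasted is not given in the sources used here. The other 10 arrays held male Sprague Dawley (SD) rats, 5 on procainamide at the same dose and 5 on sterile water. They entered the shared fit, and so the standard errors and p-values of the BN differences, the probe filter and the scan-day term. Their own values are given only where a BN result is set against them.

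Procainamide is an antiarrhythmic drug that can induce a lupus-like autoimmune syndrome, and the series was made to compare strains of rat under it. The BN rat is an inbred strain known for its readiness to develop antibody-driven, drug-induced autoimmunity. Interferon gamma, a cytokine made by activated T cells and natural killer (NK) cells, binds a receptor coupled to the kinases Jak1 and Jak2. Signalling through these kinases switches on genes for chemokines, guanylate-binding proteins and antigen presentation. In macrophages the same cytokine is a classical activation signal, and activated macrophages are known to switch on itaconate synthesis and to remodel arginine metabolism.

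On each array the Cy5 channel held the RNA of the sample itself. The Cy3 channel held a reference, which by the labels was control replicate 1 of the same strain on all arrays of that strain. Values are log2 of Cy5 over Cy3, so 0 means equal to the reference and 1 means 2-fold above it. The labels do not say that the arrays came from separate animals, so p-values here reflect how these samples varied, which may be technical. The control array that carried the reference RNA in both channels had log2 ratios with an SD of 0.387 over all probes, within the 0.317 to 0.433 of the other BN control arrays, so it was as wide as arrays that compared different samples. Correlations of log2 ratios between arrays were 0.254 to 0.701 among controls, 0.331 to 0.729 among treated arrays and -0.0741 to 0.549 across the groups. The median Cy5 spot signal was 997 to 1986 on control arrays and 1694 to 3187 on treated arrays. The small number of arrays bounds how precise each value can be.

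The 4 BN control arrays lay on slide 2 and the 4 BN procainamide arrays on slide 3, scanned on different days. Treatment, slide and scan day therefore cannot be told apart within BN. Slide 2 also carried SD procainamide arrays 4 and 5, while SD procainamide arrays 1 to 3 and the SD controls lay on slide 1, scanned on the same day as slide 3. This overlap lets a scan-day term be fitted if slide 3 is taken to behave as slide 1 did. It raised the median standard error of the BN difference over named genes from 0.130 to 0.208.

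The first question was how far BN blood expression differed with treatment. Of 26446 probes tested with limma, 5757 (21.8%) had a Benjamini-Hochberg adjusted p under 0.05, the threshold used throughout. With 1 probe for each of 13616 named genes, 1224 genes (8.99%) were higher and 1884 (13.8%) were lower in treated blood. Most differences were small: 95 of the higher and 250 of the lower genes exceeded 2-fold, and 14 and 13 exceeded 4-fold. In 830 of the higher genes (6.10% of those tested) and 1379 of the lower (10.1%) the 4 treated and the 4 control arrays did not overlap. With scan day as a term 62 genes (0.455%) were higher and 51 (0.375%) lower, and 104 of these 113 had been called in the same direction without it. Of the 129 genes described here that passed the test, 85 lost the call with scan day, as is said where they are described. Because the term raised the standard error, a lost call does not by itself mean a smaller difference. For gene lists the shares of members called are to be read against the 8.99% and 13.8% of all named genes. The split between directions depended on the scaling. Genes higher made up 39.4% of those called in the ratios used here, 50.2% in the authors' deposited log2 ratios, 57.6% with Cy5 alone and 54.9% with scan day as a term.

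The reference channel gives a background, since by the labels it held the same RNA on all 8 BN arrays. Between slides 2 and 3 Cy3 differed in 51.7% of probes at an adjusted p under 0.05. The differences were mostly small, with a median size of 0.176 on the log2 scale and 288 probes (1.09%) beyond 2-fold, against 733 probes beyond 2-fold for the ratio. Beside the main genes the change in each channel alone, normalized between arrays, is given, because a lower reference raises a ratio. With Cy5 alone 2929 named genes (21.5%) were higher and 2159 (15.9%) lower. Of the 129 described genes that passed, 13 lost the call in Cy5 alone, and each is named below with its Cy5 value.

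Among the largest rises were Acod1, Hk3 and Ass1, genes of itaconate synthesis, glucose use and arginine synthesis. Acod1, the enzyme that makes itaconate from a citric acid cycle intermediate, had log2 ratios of 0.03, -0.40, -0.37 and -0.09 on the control arrays and 3.54, 6.0, 4.94 and 4.26 on the treated arrays. All 4 treated arrays lay far above all controls. The difference was 4.89 ± 0.47 (log2, SE; adjusted p = 4.31e-06 by limma), or 29.7-fold, but 2 of the 4 control spots were not well above background, so its size is not exact. Hexokinase 3 (Hk3), the hexokinase of white blood cells, measured 0.54, -0.10, -0.63 and 0.11 in controls and 3.75, 4.6, 4.17 and 3.88 in treated blood. Its treated arrays spanned less than 1 log2 unit and its difference was 4.12 ± 0.32 (adjusted p = 4.02e-07). Ass1, which joins citrulline and aspartate in the remaking of arginine, measured -0.35, 0.05, -0.44 and -0.09 in controls and 2.88, 5.05, 3.3 and 3.41 in treated blood, with treated array 2 the highest. Adding scan day gave differences of 4.26, 3.64 and 3.46 (adjusted p = 0.0147, 0.00290 and 0.00711). Cy5 alone differed by 5.12, 3.47 and 4.07, and Cy3 by 0.43, -0.88 and 0.26, so Cy3 was lower on the treated arrays for Hk3 and higher for the other genes.

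**Figure D1:**
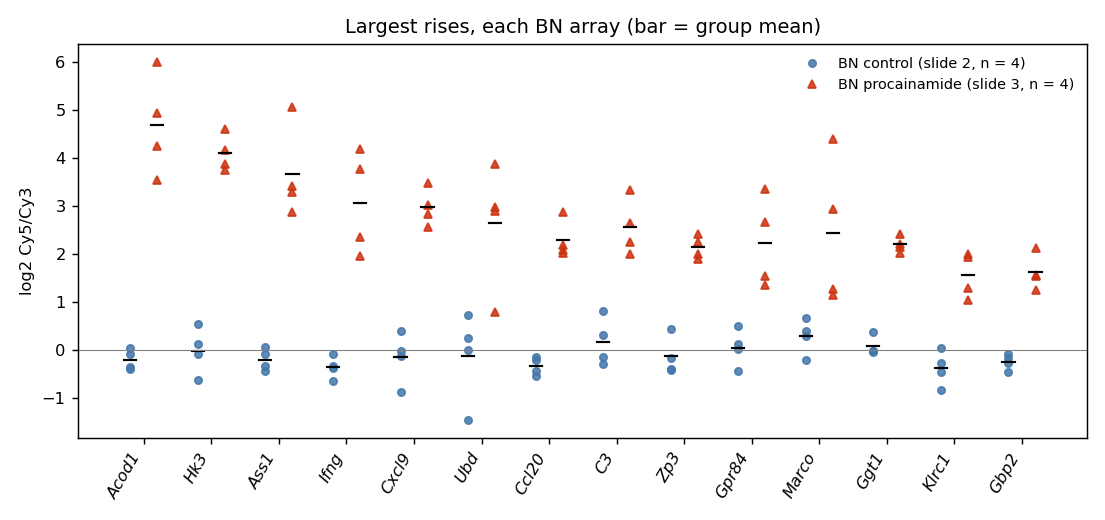
Log2 ratio of Cy5 over Cy3 (y axis) of 14 genes among the largest rises (x axis) on each of the 8 BN arrays, with blue circles for controls, red triangles for procainamide and black bars for the 4-array means. The genes were chosen among those whose groups did not overlap. Ubd, with treated values from 0.79 to 3.88, has the widest treated group beside Marco.

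Other large rises included receptors and secreted proteins of innate immunity. Marco, a scavenger receptor of macrophages, measured -0.21, 0.28, 0.39 and 0.66 in controls and 1.15, 4.4, 2.93 and 1.27 in treated blood, with arrays 2 and 3 well above arrays 1 and 4. Gpr84, a receptor for medium-chain fatty acids on myeloid cells, had the same order of treated arrays, at 1.35, 3.36, 2.67 and 1.54 against control values of 0.11, -0.44, 0.01 and 0.50. Complement C3, the central protein of the complement cascade, rose by 2.39 ± 0.25 (adjusted p = 9.07e-06), from -0.15, 0.30, -0.29 and 0.81 to 1.99, 3.32, 2.65 and 2.24. Ggt1, a gamma-glutamyl transferase that breaks down extracellular glutathione, was even across treated arrays, at -0.02, -0.03, 0.36 and -0.04 in controls and 2.02, 2.15, 2.42 and 2.21 in treated blood. Zp3, a glycoprotein of the egg coat, rose by 2.27 ± 0.19, with 2 of 4 control spots well above background, so its size is not exact. Dnase2b, an acid nuclease, rose by 1.91 ± 0.34. Ccdc33 rose by 1.95 ± 0.21 and Ifgga2l2 by 1.52 ± 0.21. Btnl5, a butyrophilin-like gene, rose by 1.83 ± 0.24 on its brighter probe, which was well above background on 1 of 4 control arrays so that the size is not exact, while its other probe differed by 0.08. After adding scan day C3, Ggt1 and Zp3 stayed past the threshold (adjusted p = 0.0124, 0.00559 and 0.00502). Marco, Gpr84, Dnase2b and Ifgga2l2 did not (0.228, 0.147, 0.219 and 0.163).

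The interferon gamma pathway was followed from ligand to targets. Of 22 measured genes on the list, 16 rose (72.7%) and none fell, with a median difference of 0.94 against -0.02 over all named genes. The median ratio of its members was -0.31 to 0.00 on the control arrays and 0.58 to 1.19 on the treated arrays. In SD blood 11 of the 22 rose and none fell, beside 194 (1.42%) and 239 (1.76%) of all named genes. With scan day in the BN fit 8 of the 22 rose, and the median was 1.02. Ifng, the ligand, measured -0.08, -0.38, -0.34 and -0.65 in controls and 1.95, 3.76, 4.19 and 2.36 in treated blood, a difference of 3.43 ± 0.44 (adjusted p = 7.19e-05). All treated arrays lay at least 2 log2 units above all controls, and Cy5 alone differed by 3.63 and Cy3 by 0.32. With scan day as a term it was 3.08 ± 0.73 (adjusted p = 0.0626). The receptor chains and kinases differed by -0.23 (Ifngr1), 0.17 (Ifngr2), 0.42 (Jak1) and 0.35 (Jak2), and none of the 4 passed the test in the ratio. With Cy5 alone Ifngr2 (0.64, adjusted p = 7.70e-05) and Jak2 (0.55, adjusted p = 0.00155) passed. Jak2 passed under 5 of the 18 alternatives, Cy5 alone included, and Jak1 under 1. The feedback inhibitors Socs1 and Socs3, which block Jak kinases, differed by 0.87 ± 0.30 and 0.04 ± 0.10 and did not pass in the ratio. In Cy5 alone both passed, Socs1 upward (1.21, adjusted p = 0.00412) and Socs3 downward (-0.50, adjusted p = 0.00357, with Cy3 at -0.59), and Socs1 passed under 6 of the 18 alternatives, Cy5 alone included.

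The transcription factors Irf1, Irf8 and Ciita rose. Irf1, which interferon is known to induce, measured 0.23, 0.03, -0.05 and -0.32 in controls and 1.31, 1.61, 1.4 and 1.43 in treated blood and rose by 1.47 ± 0.13 (adjusted p = 1.44e-06). No treated array of Irf1 came within 1 log2 unit of a control array. Its Cy5 alone rose by 0.73, while Cy3 differed by -0.77, so the ratio moved by more than the samples' own signal. Irf8, a factor of monocytes and dendritic cells, rose by 0.54 ± 0.16 with overlapping groups (adjusted p = 0.0211). Ciita, the master regulator of MHC class II, rose by 0.82 ± 0.11, from -0.44, -0.08, -0.30 and -0.36 to 0.44, 0.52, 0.37 and 0.76. Irf1 stayed past the threshold at 1.49 when scan day was added, and Ciita and Irf8 did not (0.66, adjusted p = 0.0905, and 0.58, adjusted p = 0.378).

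Among the secreted targets, Cxcl9, a chemokine that draws T cells, measured -0.02, -0.14, -0.89 and 0.40 in controls and 2.57, 3.47, 2.83 and 3.02 in treated blood. Its treated arrays lay within 1 log2 unit of each other, and the difference was 3.14 ± 0.32 (adjusted p = 6.91e-06). Cxcl10, a second ligand of the same receptor, rose by 0.99 ± 0.15 in the ratio, from -0.17, 0.07, -0.42 and -0.22 to 0.43, 1.16, 0.99 and 0.65, but its Cy5 signal alone differed by -0.07 and its Cy3 signal by -1.0. The rise of Cxcl10 was thus seen in the ratio and not in Cy5 alone (adjusted p = 0.739). Cxcl9 differed by 1.94 in Cy5 and -1.36 in Cy3. Cxcl11, the remaining ligand, rose by 0.67 ± 0.18 with overlapping groups. Cxcl10 and Cxcl11 did not pass once scan day was added (adjusted p = 0.0574 and 0.435). Their receptor Cxcr3 rose by 0.79 ± 0.11 with Cy3 at 0.09.

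The interferon-inducible GTPases, which attack vacuoles of intracellular microbes, all rose where measured on the list. Gbp2 measured -0.09, -0.17, -0.28 and -0.46 in controls and 1.24, 2.12, 1.57 and 1.55 in treated blood (1.87 ± 0.19, adjusted p = 5.85e-06), and Gbp5 measured -0.11, -0.06, -0.40 and -0.23 and 0.85, 1.89, 1.3 and 1.3 (1.54 ± 0.17). Irgm rose by 1.38 ± 0.17 and Igtp by 0.88 ± 0.11. All 4 stayed past the threshold with scan day as a term (adjusted p = 0.0255, 0.0378, 0.0202 and 0.0288). In Irgm the rise lay in Cy5 (1.44) and not in Cy3 (-0.07). The effectors also rose. Ido1, which degrades tryptophan, measured -0.14, 0.24, -0.09 and -1.55 in controls and 1.03, 1.46, 1.27 and 0.99 in treated blood, with control array 4 far below the rest. Ubd, a ubiquitin-like modifier, measured -0.01, 0.25, -1.46 and 0.72 and 3.88, 0.79, 2.89 and 2.98, and its lowest treated array lay just above its highest control. Cd274, the checkpoint ligand PD-L1, rose by 1.23 ± 0.29 with overlapping groups (adjusted p = 0.00636). These 3 lost the call with scan day as a term (adjusted p = 0.215 for Ido1, 0.175 for Ubd and 0.0564 for Cd274). Their differences with that term were 1.40 ± 0.48, 2.91 ± 0.92 and 1.91 ± 0.44, against 1.57, 2.76 and 1.23 without it.

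**Figure D2:**
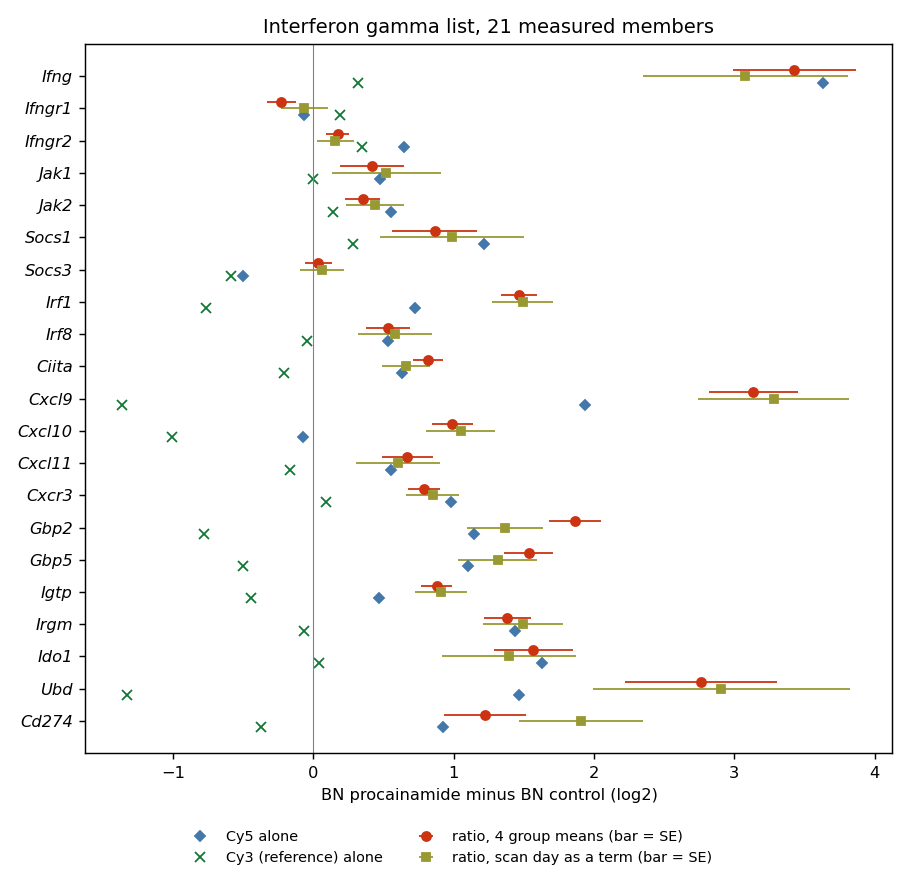
Difference of BN procainamide minus BN control on the log2 scale (x axis) for 21 measured members of the interferon gamma list (y axis, ligand and receptor at the top, effectors at the bottom). Red circles with SE bars are the ratio, olive squares with SE bars the ratio with scan day as a term, blue diamonds Cy5 alone and green crosses Cy3 alone. Ifng and Ido1 lie at the same place in ratio and Cy5, while Cxcl9, Ubd and Cxcl10 have Cy3 values between -1.36 and -1.0.

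The promoters of these genes were searched for 2 motifs on both strands, in the 250 bases before the annotated start (RefSeq, GRCr8). One was TTCNNNGAA, a palindrome known from promoters of genes induced by interferon gamma, and the other GAAA, any 2 bases and GAAA again, a core of the element bound by interferon regulatory factors. Of all 33469 RefSeq promoters, 7.67% held the first and 3.41% the second. Counted by gene, the shares were 6.67% and 2.98% of the 11128 named genes tested with a promoter. Of the 13 interferon gamma list genes that rose and had a promoter in the table, 5 held the first (38.5%) and 5 the second (38.5%). Of all 18 measured members with a promoter, whether they rose or not, 6 held the first (33.3%) and 6 the second (33.3%). Of the 13 MHC class I list genes that rose, 1 held the first (7.69%) and 6 the second (46.2%). Over the 18 measured members of that list the shares were 11.1% and 38.9%. Of the 24 type I interferon genes measured with a promoter, 16 held the second (66.7%), although 3 of that list's 34 measured members rose. Over all genes called higher, 1024 with a promoter, the shares were 6.84% and 4.98%. A match describes letters and not a bound site. The sequences below are examples: 4 genes that hold a match and rose in treated blood also with scan day as a term. In all, 8 members of the interferon gamma list rose with that term. Gbp5, with a match, and Cxcr3, for which none was found, also passed and are not shown. The examples therefore do not tell how often such genes hold a motif. Each sequence runs 5′ to 3′ on the strand of the gene and ends at the base before the start, with motif matches in capitals. Irf1 lies at chr10:38417685-38417934 on the plus strand, Irgm at chr10:33742579-33742828 on the minus strand, Igtp at chr10:42874797-42875046 on the plus strand and Gbp2 at chr2:234005477-234005726 on the plus strand, all in GRCr8 and upstream of their first exon.
Irf1: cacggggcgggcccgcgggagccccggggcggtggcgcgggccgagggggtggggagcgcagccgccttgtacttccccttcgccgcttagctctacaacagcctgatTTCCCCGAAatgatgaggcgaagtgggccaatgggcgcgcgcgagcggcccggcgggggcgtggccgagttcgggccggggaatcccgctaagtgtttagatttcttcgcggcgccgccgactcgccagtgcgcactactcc
Irgm: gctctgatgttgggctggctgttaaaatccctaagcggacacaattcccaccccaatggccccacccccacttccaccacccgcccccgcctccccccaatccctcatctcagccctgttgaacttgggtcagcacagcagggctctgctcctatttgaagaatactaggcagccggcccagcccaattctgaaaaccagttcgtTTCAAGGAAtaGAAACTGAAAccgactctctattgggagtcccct
Igtp: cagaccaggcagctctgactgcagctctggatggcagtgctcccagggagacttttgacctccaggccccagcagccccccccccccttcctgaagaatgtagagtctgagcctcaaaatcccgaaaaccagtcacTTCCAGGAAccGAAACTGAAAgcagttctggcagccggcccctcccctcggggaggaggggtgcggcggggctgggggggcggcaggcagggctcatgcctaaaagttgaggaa
Gbp2: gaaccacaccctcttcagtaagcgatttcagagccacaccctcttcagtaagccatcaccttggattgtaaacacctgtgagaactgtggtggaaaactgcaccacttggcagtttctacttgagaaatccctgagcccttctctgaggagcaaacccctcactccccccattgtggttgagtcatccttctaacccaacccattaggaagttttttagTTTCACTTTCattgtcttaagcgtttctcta
In Irf1 the match begins 142 bases before the start. Irgm and Igtp carry both motifs as neighbours, with the same GAAACTGAAA in both, from 34 bases before the start in Irgm and from 103 in Igtp. In Gbp2 the only match is to the second motif, on the other strand, 31 bases before the start. Cxcl10 holds GAAAGTGAAA 243 bases before the start.

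MHC class I presentation, the display of peptides from inside the cell to CD8+ T cells, was the other list that rose broadly. Of 19 measured members 13 rose (68.4%) and none fell, with a median of 0.60, and with scan day as a term 6 rose. The class I heavy chain RT1-A1 measured 0.32, 0.33, 0.05 and 0.26 in controls and 1.1, 1.25, 1.08 and 1.17 in treated blood, a difference of 0.91 ± 0.10 (adjusted p = 1.03e-05) that its other probe matched at 0.91. RT1-A2 rose by 1.18 ± 0.17 and RT1-CE5 by 0.98 ± 0.16. Class I genes are near-identical copies of each other, so a probe may read several of them. The light chain B2m rose by 0.70 ± 0.21 with overlapping groups, but by 0.13 in Cy5 alone (adjusted p = 0.436), and it lost the call with scan day (adjusted p = 0.349). The peptide transporter subunit Tap1 measured 0.45, 0.00, -0.07 and -0.03 in controls and 0.92, 1.78, 1.4 and 1.2 in treated blood, and its partner Tap2 differed by -0.17 ± 0.20 and did not pass. The loading factor Tapbp rose by 0.56 ± 0.10.

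The immunoproteasome, which cuts peptides for class I, rose in its inducible catalytic subunits Psmb8 (0.62 ± 0.14), Psmb9 (1.1 ± 0.17) and Psmb10 (0.77 ± 0.11) and in its activators Psme1 (0.49 ± 0.11) and Psme2 (1.21 ± 0.12). Psme2 measured 0.10, 0.24, -0.05 and 0.09 in controls and 1.14, 1.52, 1.31 and 1.23 in treated blood. The channels differed here: over the 19 members the median difference was 0.19 in Cy5 alone and -0.42 in Cy3 alone. Tap1 and Tapbp rose in Cy5 (1.17 and 0.71) with little change in Cy3, whereas Psme1 differed by -0.06 in Cy5, Psmb10 by 0.19 and RT1-A2 by 0.20, none of them past the threshold (adjusted p = 0.604, 0.133 and 0.120). Adding scan day, Psmb8, Psmb9, Psmb10 and Psme1 lost the call (adjusted p = 0.253, 0.174, 0.132 and 0.289). Of 33 constitutive proteasome genes 5 rose (15.2%) and none fell, with a median of 0.16. MHC class II, which presents outside antigen to CD4+ T cells, had 14 measured members, of which 2 rose (14.3%, against 8.99% of all named genes) and none fell. They were Ciita and the lysosomal reductase Ifi30 (0.31 ± 0.09), and Ifi30 differed by 0.04 in Cy5 alone (adjusted p = 0.707) and lost the call with scan day (adjusted p = 0.517). The chains RT1-Da and RT1-Ba differed by 0.32 and -0.44 and the invariant chain Cd74 by -0.17, without passing the test, although RT1-Ba passed downward in Cy5 alone (-0.85, adjusted p = 0.00137).

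The type I interferon genes, which answer interferon alpha and beta, came next. Of 34 measured members 3 rose (8.82%, against 8.99%) and 2 fell (5.88%, against 13.8%), and the median was -0.03. The rises were Oasl2 (0.75 ± 0.18), Stat2 (0.46 ± 0.12) and Parp14 (0.55 ± 0.12). Parp14 differed by 0.03 in Cy5 alone (adjusted p = 0.793) and by -0.42 in Cy3. Ifitm3, which blocks viral entry, fell by 0.43 on the log2 scale. None of these 4 passed with scan day as a term (adjusted p = 0.155, 0.445, 0.295 and 0.520). Oas2, an antiviral nucleotide synthetase, fell by more than any other member and is described with the slide 2 genes below. The list's median was -0.28 to 0.46 on the control arrays and -0.32 to 0.08 on the treated arrays. Control array 1 was the highest, although by the labels it carried the same RNA in both channels.

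Chemokines and their receptors moved in both directions. Of 47 measured members 15 rose (31.9%) and 6 fell (12.8%, near the 13.8% of all named genes), with Cxcl9, Cxcl10, Cxcl11 and Cxcr3 kept on the interferon gamma list. Ccl20, which attracts cells bearing Ccr6, measured -0.21, -0.55, -0.45 and -0.15 in controls and 2.18, 2.86, 2.07 and 2.02 in treated blood (2.62 ± 0.19, adjusted p = 2.61e-07), and its other probe rose by 2.35. Ccr6 itself rose by 0.63 ± 0.16 with overlapping groups. Cxcl16 and its receptor Cxcr6, a marker of activated T cells, both rose, by 0.96 ± 0.13 and 1.46 ± 0.20. The monocyte attractants Ccl2 and Ccl7 measured 1.0, 1.99, 1.83 and 1.21 and 0.98, 2.37, 2.04 and 0.74 in treated blood against -0.07, 0.22, -0.39 and -0.21 and 0.15, -0.05, -0.88 and 0.21 in controls, and in both genes arrays 2 and 3 were the highest. Ccl3, Ccl4 and Ccl5, attractants of T cells and monocytes, rose by 0.67 ± 0.12, 1.15 ± 0.17 and 1.32 ± 0.22. Cy5 alone carried the rise of Ccl4 (1.17), whereas for Ccl5 it differed by 0.28, which did not pass, with Cy3 at -0.91. Ccl9 rose by 1.11 ± 0.15 and Ccl19 by 0.87 ± 0.19.

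The falls included Ccl21, a homing signal of lymph nodes (-0.94 ± 0.19), the eosinophil attractant Ccl11 (-0.82 ± 0.27; in Cy5 alone -0.61, adjusted p = 0.152, with Cy3 at 0.05) and the scavenging receptor Ackr3 (-0.86 ± 0.13). Ccr3, the receptor by which eosinophils answer Ccl11, measured 0.34, -0.20, -0.81 and -0.35 in controls and -2.79, -2.83, -1.31 and -1.99 in treated blood (-1.97 ± 0.30, adjusted p = 3.27e-04). When scan day was added, Ccl20 and Cxcr6 stayed past the threshold (adjusted p = 0.00205 and 0.0243), and no other member of the list did. Among the members named, the adjusted p with scan day ran from 0.0965 (Ccl21) to 0.526 (Ccr6).

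Of 34 measured cytokines and genes of NF-kB feedback 9 rose (26.5%) and 2 fell. Icam1, an adhesion molecule of activated cells, rose by 0.90 ± 0.10 (adjusted p = 1.59e-05) and stayed past the threshold with scan day as a term (0.67, adjusted p = 0.0431). Tnf measured -0.16, -0.01, 0.47 and -0.11 in controls and 1.54, 1.16, 1.15 and 1.51 in treated blood, a difference of 1.29 ± 0.20 without overlap. It was lower on the slide 2 than on the slide 1 arrays of SD procainamide by 0.64, and its difference with scan day as a term was 0.65 (adjusted p = 0.314). The interleukin 1 antagonist Il1rn rose by 1.16 ± 0.17 and Tnfaip2 by 0.83 ± 0.12, but Tnfaip2 differed by 0.06 in Cy5 alone (adjusted p = 0.736) and by -0.76 in Cy3. Both lost the call with scan day (adjusted p = 0.120 and 0.192). Birc3, an inhibitor of cell death, rose by 0.61 ± 0.11 and stayed past the threshold with scan day as a term. Among helper T cell genes, 7 of 24 rose (29.2%) and 2 fell. Il21, a cytokine that drives B cell responses, measured -0.24, 0.06, 0.08 and -0.15 in controls and 1.32, 0.91, 0.98 and 1.45 in treated blood (1.23 ± 0.12, adjusted p = 5.78e-06; with scan day 1.2, adjusted p = 0.0100). The interleukin 12 receptor chains Il12rb1 and Il12rb2 and the factor Stat4, which carry the signal for type 1 helper cells, rose by 0.61 ± 0.12, 0.76 ± 0.13 and 0.59 ± 0.10, and none of them passed with scan day as a term (adjusted p = 0.258, 0.337 and 0.139). Il9 fell (-0.87 ± 0.14), from 1.06, 1.08, 1.24 and 1.71 in controls to 0.51, 0.41, 0.37 and 0.33 in treated blood, so all 4 controls, array 1 included, lay above the reference. It did not pass with scan day as a term (adjusted p = 0.314).

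In arginine metabolism, Arg1, which breaks arginine down, fell: it measured -0.35, -0.46, 0.02 and -0.12 in controls and -1.8, -1.03, -0.88 and -1.01 in treated blood (-0.95 ± 0.20). The fall was not called in Cy5 alone (-0.38, adjusted p = 0.151, with Cy3 at 0.42) nor with scan day as a term (adjusted p = 0.253). Slc7a2, an arginine carrier, was not well above background on any control array and cleared it on 3 of 4 treated arrays, and no size is therefore given. Its test passed by limma (adjusted p = 0.00298), but not once scan day was added (0.323). Of the 26 genes of itaconate, arginine and polyamine metabolism measured, 6 rose (23.1%) and 3 fell (11.5%).

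Glycolysis, of which Hk3 is the first step, differed by small amounts otherwise. Of 29 glycolytic genes 7 rose (24.1%) and 2 fell, with a median of 0.24, and the treated arrays' median ratios (0.11 to 0.29) lay above those of the controls (-0.05 to 0.03). Tpi1 rose by 0.71 ± 0.09 (adjusted p = 4.65e-05) and Pfkp, a phosphofructokinase, by 0.69 ± 0.14, but with scan day as a term only Hk3 of the list passed. Oxidative phosphorylation, the mitochondrial making of ATP, moved one way in the ratio: 14 of 63 subunits rose (22.2%) and none fell, 53 of the 63 lay above 0, and the median was 0.17. In Cy5 alone 16 of the 63 rose and 3 fell, beside 21.5% and 15.9% of all named genes. Cox7c rose by 0.61 ± 0.13, and none of the 63 passed with scan day as a term. Of 30 genes of oxidative stress and metallothioneins 5 rose and 1 fell. The largest rises were the mitochondrial dismutase Sod2, by 1.14 ± 0.13 and thioredoxin Txn1, by 1.27 ± 0.14. Both passed with scan day as a term (0.0416 and 0.00638). Sod2 rose in Cy5 (1.37), whereas Txn1 differed by 0.33 in Cy5 and -0.87 in Cy3.

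**Figure D3:**
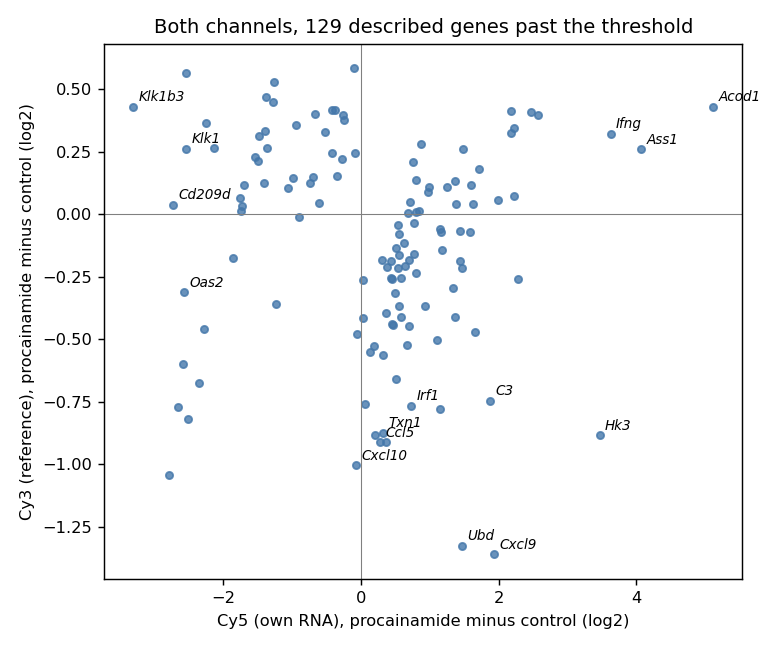
Change between BN treated and control arrays in the Cy5 channel (x axis, log2, the samples' own RNA) and in the Cy3 channel (y axis, log2, the reference) for the 129 genes described here that passed the test. Genes at the right with Cy3 near or above 0, such as Acod1, Ifng and Ass1, rose in their own signal. Cy3 lies below -0.5 in 23 of the 129. Among these are Cxcl9, which also rose in Cy5 (1.94), Cxcl10, which did not, and the falls Enpp7 and Scart1.

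The falls had 2 patterns. In the first, controls lay near the reference and treated arrays far below it. Klk1b3 measured 0.71, 0.44, -0.21 and -0.10 in controls and -3.91, -2.78, -4.04 and -3.87 in treated blood, a difference of -3.86 ± 0.28 (adjusted p = 2.61e-07). It belongs to the tissue kallikreins, serine proteases known from salivary gland and kidney. Klk1 measured 0.46, 0.39, -0.13 and -0.18 and -2.6, -2.38, -3.1 and -2.84 (-2.86 ± 0.20). Klk1c3, Klk1c8 and Klk1c2 fell by the same pattern, to -3.03, -2.54, -3.42 and -3.26, -2.63, -2.48, -3.06 and -2.87 and -1.57, -2.7, -1.37 and -1.51 in treated blood. No treated array of these 5 genes reached within 1 log2 unit of a control array. Of 14 kallikrein genes measured 11 fell and none rose, with a median of -0.89, and the 5 genes named passed with scan day as a term (adjusted p = 0.00205, 0.00205, 0.00205, 0.00205 and 0.0372). The falls lay in Cy5, by -3.31 for Klk1b3 and -2.54 for Klk1. These genes are near-identical copies, so 1 transcript may be read by several of the probes and their values are uncertain as separate measurements. In RNA of whole blood, fewer cells of a type and less RNA per cell cannot be told apart.

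The likeness of these genes can be seen in their promoters, which share 19 bases around the TATA-like TTTAAA. A window of 30 bases on the strand of each gene is shown for the 5 that fell most, with the shared stretch in capitals (RefSeq, GRCr8; Klk1 chr1:103779155-103779184, Klk1b3 chr1:103845614-103845643, Klk1c3 chr1:103808075-103808104 and Klk1c8 chr1:103684245-103684274 on the plus strand, Klk1c2 chr1:103633011-103633040 on the minus strand).
Klk1: ggagttTTTAAAGGCTCCCCAAGGAggctc
Klk1b3: aggagaTTTAAAGGCTCCCCAAGGAggctc
Klk1c3: ggagttTTTAAAGGCTCCCCAAGGAagcta
Klk1c8: agagttTTTAAAGGCTCCCCAAGGAcacta
Klk1c2: ggagttTTTAAAGGCTCCCCAAGGAcacta
Of 33469 promoters, counting also 50 bases after the start and both strands, 8 (0.0239%) held the stretch, and all 8 were kallikreins. It begins 27 bases before the annotated start in Klk1b3, 34 in Klk1c2, 42 in Klk1c8 and 69 in Klk1c3, and 10 bases after it in Klk1. Of the 13 kallikreins measured that have a promoter entry, 7 held it, the other 2 being Klk1c10 and Klk1c12.

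Other genes followed the first pattern. Cd209d, a C-type lectin of the DC-SIGN family, measured -0.22, 0.22, -0.89 and -0.24 in controls and -3.8, -2.47, -3.33 and -3.74 in treated blood (-3.06 ± 0.28), and was well above background on 1 of 4 treated arrays, so the size is not exact. Lcn8, a lipocalin, fell to -1.71, -1.82, -2.12 and -1.82 (-2.0 ± 0.23), within 1 log2 unit of each other. Tgm1, a transglutaminase of epithelia, fell by 1.70 on the log2 scale, Ppp1r1a, a phosphatase inhibitor, by 1.67 and Qrfpr, a peptide receptor, by 1.46, and these 4 genes and Cd209d passed with scan day as a term. Defb14, a beta-defensin, measured -1.37, -2.49, -1.82 and -3.09 in treated blood (-2.06 ± 0.28; with scan day adjusted p = 0.0556). Il13ra2, the decoy receptor of interleukin 13, measured -2.12, -3.45, -1.11 and -2.04 (-1.94 ± 0.37), and Bpi, a bactericidal protein of neutrophil granules, measured -1.72, -2.83, -1.0 and -1.8 (-1.91 ± 0.28), with treated array 2 the lowest in both. Enkur (-2.49 ± 0.39), the extracellular matrix gene Aspn (-1.8 ± 0.24) and Fxyd3 (-1.85 ± 0.35) also fell. Enkur was higher on the slide 2 than on the slide 1 arrays of SD procainamide by 0.61, while its BN controls lay near the reference (mean -0.03). Ocm, a calcium-binding protein, fell by 1.94 on its brighter probe, while its other probe differed by 0.24. With scan day as a term Il13ra2, Bpi, Enkur, Aspn, Fxyd3 and Ocm lost the call (adjusted p = 0.0742, 0.125, 0.204, 0.104, 0.219 and 0.0961).

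In the second pattern the treated arrays lay nearer the reference and the controls far above it. Scart1 measured 2.69, 2.02, 2.58 and 2.92 in controls and 1.07, 0.54, 0.21 and 0.26 in treated blood. Oas2 measured 1.66, 1.18, 2.05 and 2.54 and 0.17, -0.80, -0.47 and -0.80, and Hspb3, a small heat shock protein, 1.73, 1.25, 2.22 and 2.52 and 0.56, -0.36, -0.14 and -0.22. All 4 controls were high, including array 1, which by the labels carried the same RNA in both channels. The SD procainamide arrays divided by slide in the same way: in Scart1 those on slide 1 measured 0.46, 0.66 and 1.08 and those on slide 2 1.93 and 2.04, and in Oas2 0.54, 0.42 and 0.95 and 1.7 and 1.44. Enpp7, Smim5, RT1-M4, Akap1, Ptch1, Kpna5 and Pck1 had this pattern too, with control means of 1.82, 1.7, 2.25, 1.82, 2.36, 2.0 and 1.81. The other probes of Scart1, Smim5 and Akap1 differed by -0.45, -0.51 and -0.01. Without scan day the falls ran from -2.33 in Oas2 to -1.74 in Pck1, and with scan day as a term none of the 10 passed (adjusted p from 0.142 in Akap1 to 0.524 in Ptch1). Of the 250 genes that fell beyond 2-fold, 83 (33.2%) were higher on slide 2 than on slide 1 by over 0.5 among the SD procainamide arrays, against 2.22% of all named genes. Of the 95 that rose beyond 2-fold, 5 (5.26%) were lower on slide 2 by as much, against 0.771% of all.

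**Figure D4:**
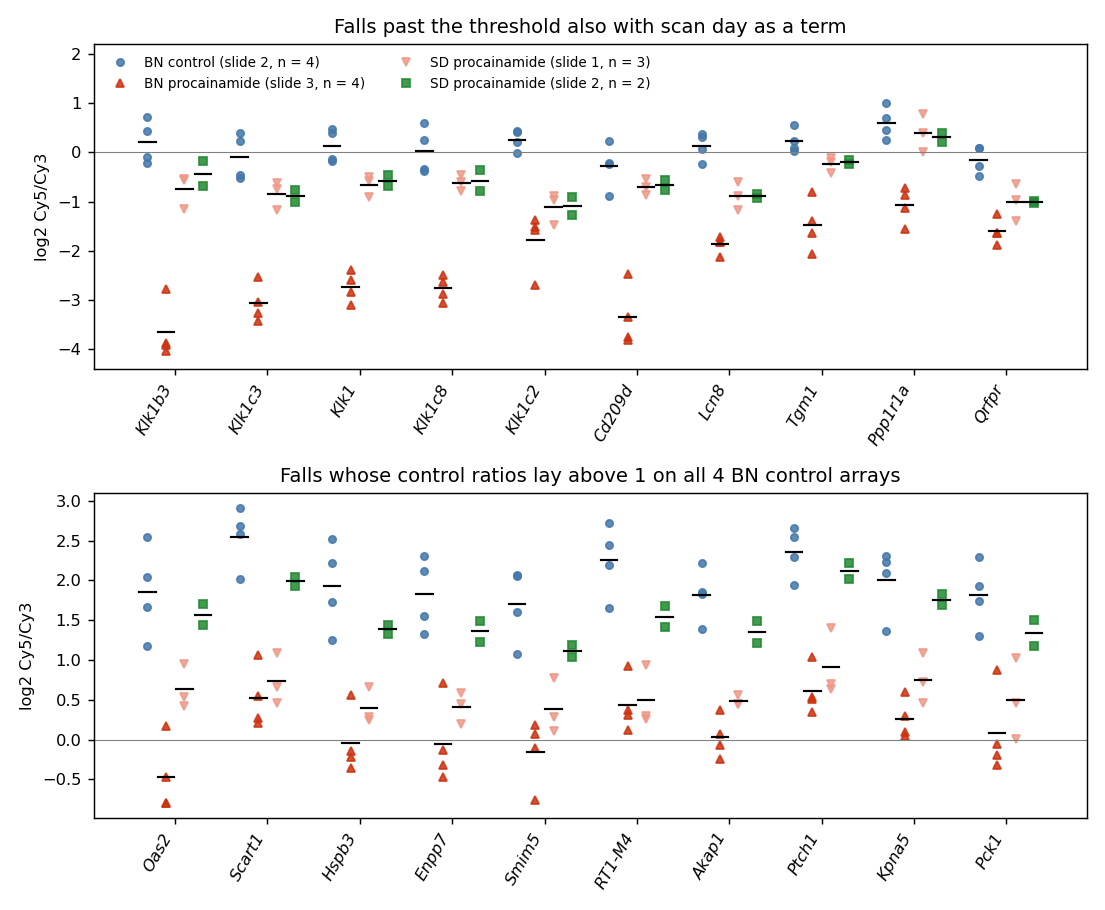
Log2 ratio of Cy5 over Cy3 (y axis) of 20 genes that fell in BN (x axis), as points for each array and black bars for the means of BN control (slide 2), BN procainamide (slide 3) and SD procainamide on slide 1 and on slide 2. The upper panel holds falls that passed also with scan day as a term. That term is fitted from the gap between the SD procainamide slides, so the choice itself favoured genes with a small gap. In these genes the SD arrays of both slides lie together and the BN treated arrays lie lowest, except in Klk1c2 and Qrfpr, where they meet SD slide 1. The lower panel holds falls whose BN controls lay far above the reference. There the SD arrays of slide 2 lie above those of slide 1 in each gene.

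Markers of blood cells were present, and their lists gave fewer calls than the interferon gamma list. All 25 measured T cell genes, all 19 B cell genes, all 26 NK and cytotoxic genes and all 21 monocyte genes were well above background on the 8 BN arrays, and so were 24 of 25 neutrophil and 31 of 32 erythroid genes. NK and cytotoxic genes rose in 6 of 26 (23.1%). Klrc1, an NKG2 receptor of NK cells, measured -0.28, 0.03, -0.47 and -0.84 in controls and 1.29, 1.94, 1.05 and 1.99 in treated blood (1.95 ± 0.22, adjusted p = 2.17e-05), and Klrc2 rose by 1.47 ± 0.18. The granule genes Nkg7 and Gzmm rose by 0.72 ± 0.12 and 0.77 ± 0.13, and the death ligand Faslg by 1.15 ± 0.23, with treated array 3 low. Of 25 T cell genes 2 rose (8%), among them Cd27 (0.41 ± 0.09), and Lef1, a factor of naive T cells, fell (-0.49 ± 0.12). Of 19 B cell genes none rose and 1 fell. Plasma cell genes rose in 4 of 12 (33.3%), with Xbp1, the factor that builds the secretory apparatus, at 0.84 ± 0.19 and the surface proteoglycan Sdc1 at 0.83 ± 0.18. Their median was -0.38 to 0.27 on the controls and 0.13 to 0.62 on the treated arrays, so the groups overlapped (control array 2 was high).

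For the myeloid marker lists too, the shares of all named genes were 8.99% higher and 13.8% lower. Of 21 monocyte and macrophage genes 4 rose (19%) and 1 fell (4.76%): Lyz2, lysozyme, rose by 1.29 ± 0.24 in the ratio, with Cy5 at 0.36 and Cy3 at -0.91, and the mannose receptor Mrc1 fell (-1.21 ± 0.32). The list's median ratio on the treated arrays ran from -0.37 on array 1 to 0.34 on array 3. Of 25 neutrophil genes 3 rose (12%) and 2 fell (8%), with a median of -0.72 on treated array 1 and 0.11 to 0.39 on the other 3. Of 24 eosinophil, basophil and mast cell genes 2 rose (8.33%) and 4 fell (16.7%), Ccr3 among the falls and Hdc, which makes histamine, among the rises (-0.23, 0.23, 0.59 and 0.30 in controls and 2.67, 1.69, 0.73 and 2.16 in treated blood). Platelet genes fell in 6 of 16 (37.5%), among them the ADP receptor P2ry12 (-0.67 ± 0.11) and Gp1bb, a chain of the von Willebrand factor receptor (-0.73 ± 0.15). Gp1bb differed by -0.09 in Cy5 alone (adjusted p = 0.674) and by 0.58 in Cy3. Erythroid genes varied most between arrays, with medians of 1.15 on control array 1 and -1.34 to -0.57 on the other controls, and -1.31 to -0.07 on treated arrays. By the labels control array 1 carried the same RNA in both channels, yet its erythroid median lay far above the reference. By the test 2 of 32 erythroid genes fell (6.25%). Adding scan day left none of the blood cell lists named here with a member past the threshold except NK and cytotoxic cells, with 1 (Klrc1).

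**Figure D5:**
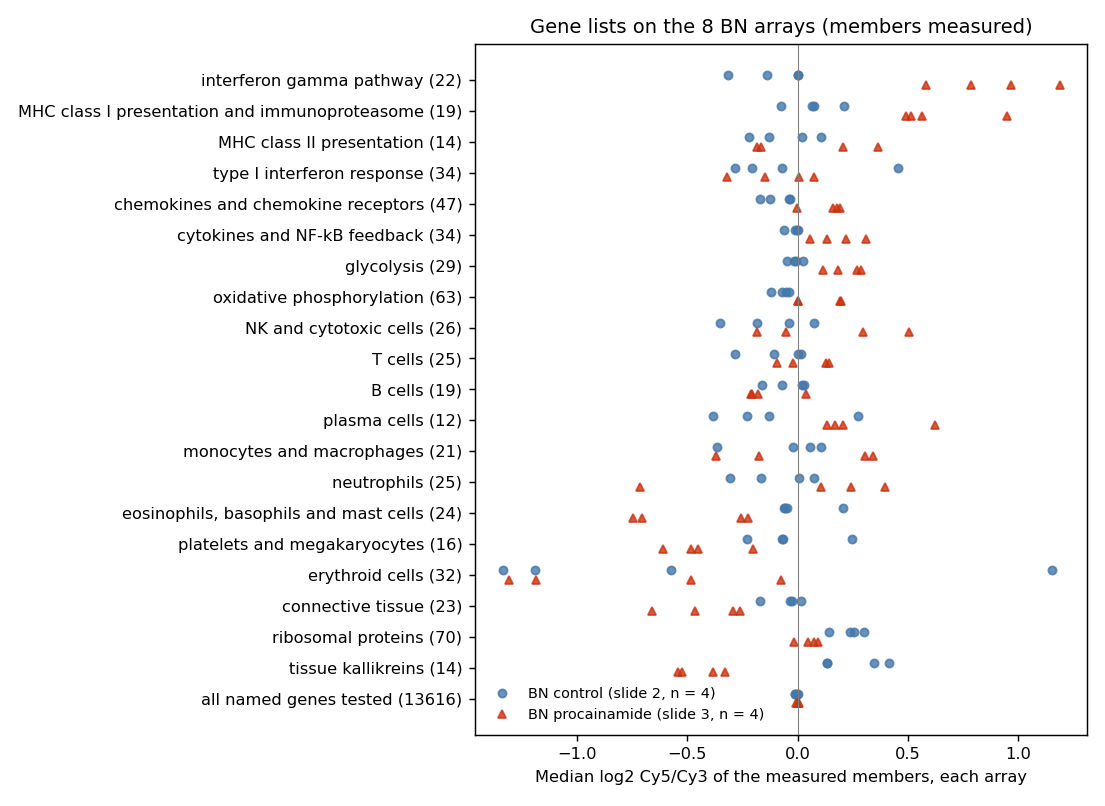
Median log2 ratio of the measured members of 20 gene lists and of all named genes tested (y axis, number measured in brackets) on each of the 8 BN arrays (x axis), with blue circles for controls and red triangles for procainamide. The groups of the interferon gamma, MHC class I and kallikrein lists do not overlap and lie farthest apart, at 0.58 to 1.19 in treated blood against -0.31 to 0.00 in controls for interferon gamma, while the erythroid list spans more than 2 log2 units among the controls alone.

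Genes of tissue around the sampling site were also read, since blood came from a sinus of the eye. Connective tissue genes fell in 7 of 23 (30.4%, against 13.8% of all named genes) and rose in none, with medians of -0.17 to 0.02 on control and -0.66 to -0.26 on treated arrays. Mgp, a matrix protein, fell by 1.17 on the log2 scale (-0.20, 0.38, 0.13 and 0.04 in controls and -0.80, -1.77, -0.92 and -0.82 in treated blood) and the collagen Col3a1 by 0.78. Endothelial genes fell in 4 of 17 (23.5%), muscle genes in 6 of 25 (24%) and epithelial genes in 5 of 21 (23.8%). In Cy5 alone 5 connective tissue, 5 endothelial, 4 muscle and 8 epithelial genes fell, and 2, 2, 1 and 1 rose. The Cy5 shares of all named genes were 15.9% lower and 21.5% higher. No member of these 4 lists passed once scan day was added (Mgp adjusted p = 0.198 and Col3a1 0.314). Of 22 lens and retina genes 6 fell (27.3%) and 3 rose (13.6%), and with Cy5 alone 8 fell and 5 rose. None of the 22 passed with scan day as a term. In SD blood 7 of the 23 connective tissue genes fell too, beside 1.76% of all named genes. Mgp differed there by -1.17 (limma adjusted p = 0.00285). The falls in SD numbered 1 of 17 endothelial, 1 of 25 muscle and 2 of 21 epithelial genes. Of 19 genes of orbital and salivary glands, where tissue kallikreins are abundant, 3 rose (15.8%) and 2 fell (10.5%), with medians of 0.06 to 0.10 on control and 0.05 to 0.12 on treated arrays, and 10 of the 19 were well above background on all 8. The part of these cells in the falls above was not tested.

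Of 28 complement genes 7 rose (25%) and 7 fell (25%). Beside C3, the early proteins C1s (0.80 ± 0.09) and C2 (1.43 ± 0.24; with scan day adjusted p = 0.173) rose. Cytosolic ribosomal protein genes fell in 20 of 70 (28.6%) and rose in none, with a median of -0.18. Their medians were 0.14 to 0.30 on control and -0.02 to 0.09 on treated arrays, and none of the 70 passed with scan day as a term. In Cy5 alone 12 of the 70 fell and 2 rose, with a median of -0.07, beside 15.9% lower and 21.5% higher of all named genes. Among 22 genes that could handle procainamide itself, 3 fell (13.6%, the share of all named genes being 13.8%) and none rose. The falls were the glutathione transferase Gstp1 (-0.66 ± 0.09), the drug exporter Slc47a1 (-0.95 ± 0.19) and Por, the reductase that feeds cytochrome P450 enzymes (-0.37 ± 0.12). None of them passed with scan day as a term (adjusted p = 0.204, 0.426 and 0.746), and Por differed by -0.08 in Cy5 alone (adjusted p = 0.596). The call of Por was lost without control array 1 (limma adjusted p = 0.0617), control array 4 (0.096), treated array 2 (0.0729) or treated array 4 (0.1). Among the genes named above, calls were also lost in the same way for Ccl11 without control array 2 or 3 or treated array 2 or 4 (up to 0.13), Irf8 without control array 2, 3 or 4 or treated array 2 (up to 0.072), B2m without control array 3 or treated array 2, 3 or 4 (up to 0.0849) and Ifi30 without control array 4 or treated array 2 or 3 (up to 0.0698).

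The BN response was then set against that of SD rats on the same ratios. The difference between the responses passed in 2948 of 26446 probes (11.1%), but in 0 probes with scan day as a term and in 6 with each array's brightness (its median Cy5 signal on the log2 scale) as a term. It passed in 1882 probes without BN control array 4. The scan-day term also raised the standard error of the BN difference, as given above. Within BN, treatment and slide cannot be told apart, and this holds for the differences below. Ass1 rose by 1.44 in SD, a difference between strains of 2.43 ± 0.46 (adjusted p = 0.00363). C3 rose in BN and differed by 0.79 in SD without passing there. Klk1b3 differed by -0.69 in SD, also without passing there, a difference between strains of -3.17 ± 0.37 (adjusted p = 8.27e-04). Other kallikreins did fall in SD: 6 of the 14 measured fell and none rose, beside 1.76% of all named genes lower. Klk1, Klk1c3, Klk1c8 and Klk1c2 differed in SD by -0.71, -0.87, -0.77 and -1.12 (limma adjusted p = 0.0421, 0.0362, 0.0374 and 0.0139). The genes with the smallest p-values included Rbm20, Rapgef5 and Radil among genes higher in the BN response, and Klk1b3, Klk1, Rasgef1c, Chia and Caly among genes lower in it. Rapgef5 differed by 0.70 in BN and -0.46 in SD, with its other probe at -0.02 in BN. After adding scan day the BN responses of Rbm20 and Rapgef5 did not pass (adjusted p = 0.314 and 0.202). In the genes of interferon gamma the responses of the strains were not told apart in most members: the difference passed in 3 of 22 (Ciita, Gbp2 and Irf1). Ifng rose by 2.17 in SD against 3.43 in BN (difference 1.26 ± 0.59, adjusted p = 0.178), and Acod1 by 3.06 against 4.89 (1.84 ± 0.63, adjusted p = 0.0686).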

How the data were processed

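Blood RNA was read on 18 Agilent 2-colour arrays, of which 8 were BN. Per the file headers, spots were read with Feature Extraction 10.7.1.1, which gave deposited intensity values and log10 ratios per spot, the latter not used here for tests. The authors' deposited log2 ratios were set against log2 of the scanner's processed Cy5 over Cy3 (correlation 1 and slope 1 on each array, medians from -0.014 to 0.0653), so they are log2, uncentred and of known direction.

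From the deposited median intensities, backgrounds were corrected by normexp with an offset of 50, ratios were normalized by loess within arrays and spots of a probe were averaged (limma 3.58.1, R 4.3.3). Control spots had weight 0 and spots marked as outliers were left out. Probes were kept where Cy5 cleared the scanner's background call on 4 or more of 18 arrays, no probe spot was saturated, and 18355 of 30367 probes had 1 gene symbol (RefSeq, GRCr8). Each gene was read from its brightest probe. A mean was fitted for each of the 4 groups with lmFit and eBayes, 2-sided, with Benjamini-Hochberg adjustment at 0.05 over all probes. Signals were 27.3 to 48.3 times the local background on the BN arrays.

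Genes were named by size among calls without overlap (25 rises and 25 falls), among calls also made with scan day (10 each way), from 48 gene lists (up to 5 of smallest p each, and any member of the interferon gamma, itaconate, chemokine, MHC and procainamide metabolism lists as a value), and by p in the difference between strains (5 each way); the text describes 139 of the 354 genes so named, and some are not reported here. Members and lists were chosen with earlier results of these data known. Samples of the same replicate number did not deviate together (correlations -0.523 to -0.0962), so the numbers did not pair them. The code was tested on simulated data. Alternatives were other signals, filters, added terms, the BN arrays alone and leaving out each array.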

Additional observations from a re-analysis of the deposited data

Results flagged for a closer look

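In 20 of 278 groups of 4 arrays, 1 array stood apart from the other 3 beyond the critical gap of Dixon's test, where chance gives about 1 in 20. Among controls the log2 ratios that stood apart were those of Ggt1 (0.36, array 3), Btnl5 (0.602, array 3), Tap1 (0.447, array 1), Ifi30 (0.16, array 4), Parp14 (-0.35, array 4), Oasl2 (0.459, array 1), Ackr3 (-0.0293, array 3), Ccl19 (0.403, array 4), Ccl11 (0.749, array 3), Cxcr3 (-0.326, array 3) and Radil (-0.236, array 3). Among treated arrays they were those of Klk1b3 (-2.78, array 2), Klk1c2 (-2.7, array 2), Faslg (0.112, array 3), Mgp (-1.77, array 2), Arg1 (-1.8, array 1), Tapbp (0.819, array 2), RT1-Da (0.537, array 3), Ccl11 (-1.2, array 2) and Chia (0.122, array 3). No cause was tested.

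The BN response differed from the SD response, by the limma contrast of the responses at an adjusted p under 0.05, in 57 of the genes described. In these differences BN treatment and BN slide cannot be told apart, and none passed with scan day as a term (0 probes in all). The BN response was above the SD response, on the log2 scale, in Ass1 (2.43), Ccl20 (1.21), C3 (1.6), Zp3 (1.49), Klrc1 (1.15), Ccdc33 (1.17), Dnase2b (1.6), Gbp2 (0.811), Btnl5 (1.29), Ciita (0.646), Klrc2 (0.94) and Ccl9 (0.729). It was also above it in Cxcr6 (0.991), Cxcl16 (0.629), C1s (0.513), Icam1 (0.518), Il1rn (0.956), Tnf (0.892), Tpi1 (0.628), Xbp1 (1.01), Irf1 (0.577), Cox7c (0.676), Sod2 (0.779) and Ccl3 (0.833). It was also above it in Ccr6 (0.776), Rbm20 (1.18), Rapgef5 (1.17) and Radil (0.952). It was below the SD response in Klk1b3 (-3.17), Cd209d (-2.54), Klk1c3 (-2.11), Klk1 (-2.16), Klk1c8 (-2.02), Enkur (-1.95), Oas2 (-2.84), Scart1 (-2.64), Lcn8 (-0.977), Hspb3 (-2.55), Bpi (-1.43) and Enpp7 (-2.34). It was also below it in Smim5 (-1.86), Fxyd3 (-1.79), RT1-M4 (-2.15), Akap1 (-2.28), Ptch1 (-2.35), Kpna5 (-2.35), Pck1 (-2.27), Tgm1 (-1.41), Ppp1r1a (-1.9), Lef1 (-0.534), Il9 (-0.984) and P2ry12 (-0.573). It was also below it in Slc47a1 (-0.875), Ackr3 (-0.747), Rasgef1c (-1.64), Chia (-1.17) and Caly (-1.16).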

How the results depend on the processing

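Among the described genes, the 129 that passed kept their direction, where measured, under the scanner software's processed signals, the deposited log2 ratios, no background correction, both other filters, the BN arrays alone, scan day, brightness, the replicate block and each array left out. Of those that had not passed, Cd74, Jak1 and Socs3 changed sign under some of these, never past the threshold. Calls were lost for 85 genes with scan day, 51 with brightness, 13 with the 8 BN arrays alone, 13 with Cy5 alone and 2 with the replicate block. With Cy5 alone Psme1 (-0.0621), Cxcl10 (-0.07022) and Socs3 (-0.5001) turned direction, and 10271 probes were called, with 2929 genes higher. With the 8 BN arrays alone 2801 probes were called, 495 genes higher and 962 lower. With scan day 209 probes, 62 and 51 genes, and 0 probes for the difference between strains were called. With brightness these were 685, 151, 262 and 6. Leaving out 1 array gave 3936 to 6497 probes, 816 to 1385 genes higher and 1344 to 1997 lower, and 1882 (without BN control array 4) to 3824 probes for the difference between strains. Samples of the same number did not pair; a replicate block called 4865 probes. The cause of these changes was not tested. Precision is limited by 4 arrays a group, and probes not well above background have only bounds.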
